A study of Homo sapiens with 14 samples.

Results

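The 32 genes described here are neuronal genes measured in a liver tumour cell line after transfection with miR-124, a microRNA made mainly by neurons. They were taken by gene symbol from a fixed list of neuronal cytoskeleton, synapse, adhesion, secretory granule and RNA-binding genes, out of 19775 genes on the array. For each gene the brightest of its probe sets (by mean over 14 arrays) was used, with no filter on brightness, and all 32 were found.

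HepG2 is an established human hepatoma line. One-colour oligonucleotide arrays were hybridised with RNA from HepG2 cells transfected with miR-124 (7 arrays) and from HepG2 cells given a negative control transfection (7 arrays). The times sampled were 4, 8, 16, 24, 32, 72 and 120 h, each by a single array per transfection, and every array comes from transfected cells. Values are log2 expression after RMA, which makes the distributions of the arrays alike. A ratio is the log2 level with miR-124 minus that in the control of the same time, n is the number of such pairs, and errors with ± are standard errors of the limma fit. Probe sets differ in how well they bind, so a level places a gene only against the array as a whole.

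Neurons are built on neuron-enriched tubulins, tubulin-binding proteins and neurofilaments, move cargo along axons with kinesins, and release transmitter through a vesicle fusion machinery of SNARE proteins and synaptotagmins. In most other cells many of these genes are held off by REST, a repressor that binds a DNA element called RE1 and recruits corepressors and small phosphatases. miR-124 is known for lowering messenger RNAs with a matching site, among them those of the splicing repressor PTBP1 and of the REST cofactor CTDSP1.

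The promoters of the 2 genes that rose, and of a gene that holds a complete RE1, are shown first. RE1 is the element that REST binds, as said above. Its part in the rise of the 2 genes was not tested. The windows are from RefSeq on GRCh38.p14, 250 bases before to 50 after an annotated start, and 23 of the 32 genes had at least 1. The RE1 consensus, of 21 letters with 19 of them fixed, was searched on both strands with at most 2 mismatches. Its inner part TCAGCACC, which overlaps it, was also searched alone on both strands, with no mismatch allowed. Capitals mark these matches.
SYN1 promoter, chrX:47619808-47620107, minus strand: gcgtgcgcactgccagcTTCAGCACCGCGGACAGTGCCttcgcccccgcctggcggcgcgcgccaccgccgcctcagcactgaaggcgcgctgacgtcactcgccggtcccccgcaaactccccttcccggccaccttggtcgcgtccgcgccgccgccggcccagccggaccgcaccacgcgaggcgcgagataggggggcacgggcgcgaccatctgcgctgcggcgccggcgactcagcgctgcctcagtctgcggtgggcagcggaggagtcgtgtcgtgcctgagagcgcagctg
KIF5C promoter, chr2:148874977-148875276, plus strand: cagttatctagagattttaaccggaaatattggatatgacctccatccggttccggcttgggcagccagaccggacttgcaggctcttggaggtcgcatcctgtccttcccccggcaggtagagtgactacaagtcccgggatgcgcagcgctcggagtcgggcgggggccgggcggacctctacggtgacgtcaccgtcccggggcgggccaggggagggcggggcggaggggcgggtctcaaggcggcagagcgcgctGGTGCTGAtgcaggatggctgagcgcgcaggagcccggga
ENO2 promoter, chr12:6914330-6914629, plus strand: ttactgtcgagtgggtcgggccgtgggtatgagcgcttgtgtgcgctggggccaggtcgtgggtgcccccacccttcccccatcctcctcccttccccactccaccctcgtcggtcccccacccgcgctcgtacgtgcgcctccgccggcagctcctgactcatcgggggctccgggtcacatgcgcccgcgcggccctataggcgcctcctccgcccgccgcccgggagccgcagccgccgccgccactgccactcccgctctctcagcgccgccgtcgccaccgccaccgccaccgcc
The 23 genes have 47 windows. The whole motif was found in 3 of these 47, in SYN1, GRIA2 and VGF, and in 0.0342% of all 35116 promoter windows. In SYN1 it matched all 19 fixed letters, 233 bases before the start. The GRIA2 match, chr4:157220388-157220408, reads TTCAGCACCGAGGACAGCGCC with 1 mismatch. The VGF match, chr7:101165559-101165579, reads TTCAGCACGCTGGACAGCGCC with 2 mismatches and lies across the start. The inner part alone was found in 4 of the 47, in SYN1, GRIA2, SYT4 and KIF5C, and in 1.67% of all windows. In KIF5C it lies on the opposite strand, 10 bases past the start. The other window of KIF5C and the window of ENO2 hold neither motif. These are letter matches in short windows, and RE1 elements further away would not be seen.

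Hepatocyte markers were bright on these arrays and the neuronal genes lay on both sides of the median of all probe sets. All 8 hepatocyte markers measured exceeded the probe set median (6.19), and their mean level ran from 12.8 to 13.2 with miR-124 and from 12.8 to 13.3 in the control. Of the 32 neuronal genes, 19 had a mean above that median, and of all 19775 genes 66.4% did. The neuronal genes closest above it were NEFM at 6.26 and INA at 6.28, and the closest below were BSN at 6.04 and SYT1 at 6.01. On single arrays, 16 genes were above the array's own median on all 14, 11 on none, and SYT1, NEFM, INA, KIF5C and BSN on some. An RMA level below the median does not by itself show that a gene is silent, since no detection call was used here.

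**Figure D1:**
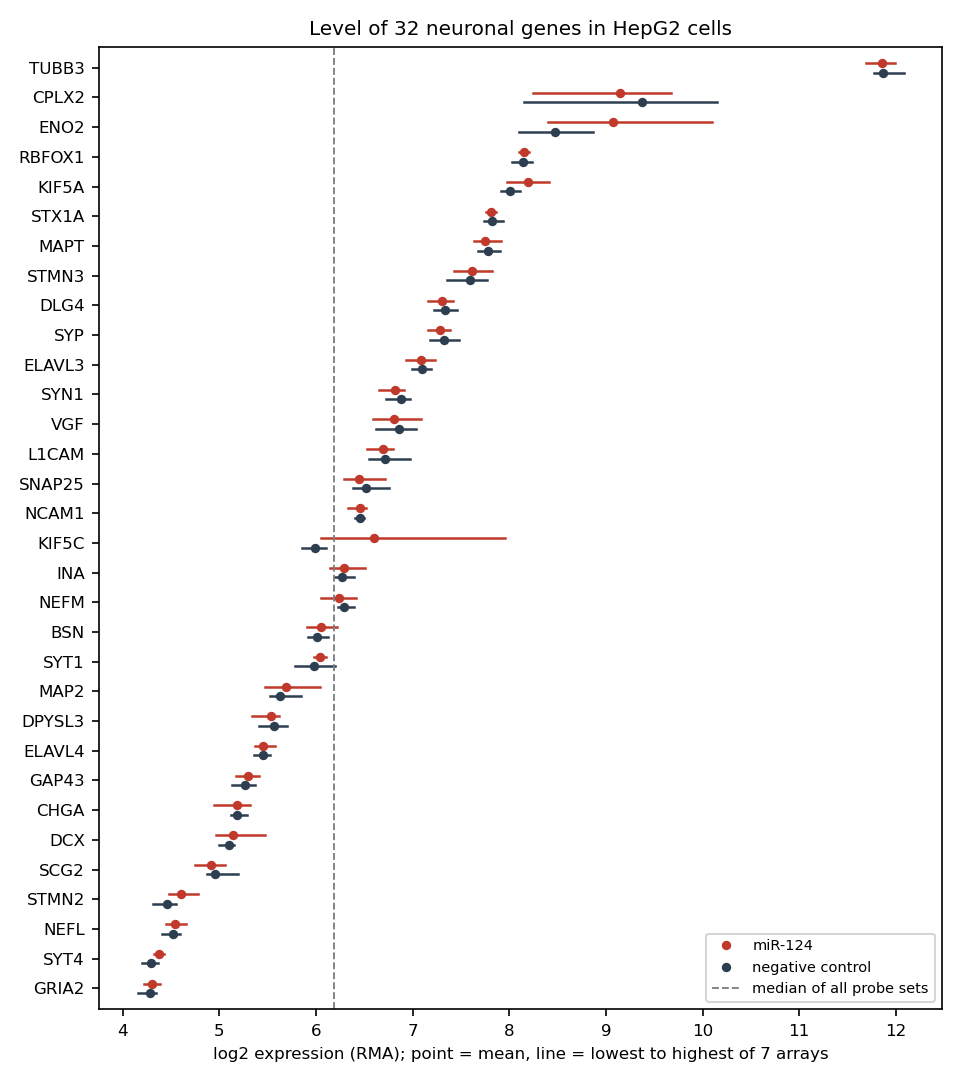
Level of each of the 32 neuronal genes on the log2 scale, with the mean (point) and the lowest to highest of 7 arrays (line) for miR-124 (red) and for the negative control (dark). Each range spans all 7 times, so the overlap seen for all 32 genes does not exclude a late difference. Only the ranges of KIF5C and ENO2 reach far to the right with miR-124, to 7.95 and 10.1.

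As a set, the neuronal genes had ratios centred near 0 at every time. Their median ratio ran from −0.05 at 120 h to 0.08 at 8 h, and that of all 19775 genes from −0.05 at 120 h to 0.04 at 24 h. At 72 h, 2 of the 32, KIF5C and ENO2, were at least 2-fold higher with miR-124, against 2.9% of all genes, and at 120 h 1 was, KIF5C, against 1.84%. Up to 32 h none was, where the share of all genes was 0.0253%, 0%, 0.0253%, 0.126% and 0.293% from 4 to 32 h. None was at least 2-fold lower at any time, where the share of all genes was 0%, 0.0506%, 0.344%, 0.991%, 1.28%, 4% and 0.839% from 4 to 120 h. Only CPLX2, ENO2 and KIF5C had a ratio beyond 0.5 in either direction at any time, and the largest of the 203 ratios of the other 29 genes was −0.44, for VGF at 4 h. Single times have no test, since each has a single pair.

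**Figure D2:**
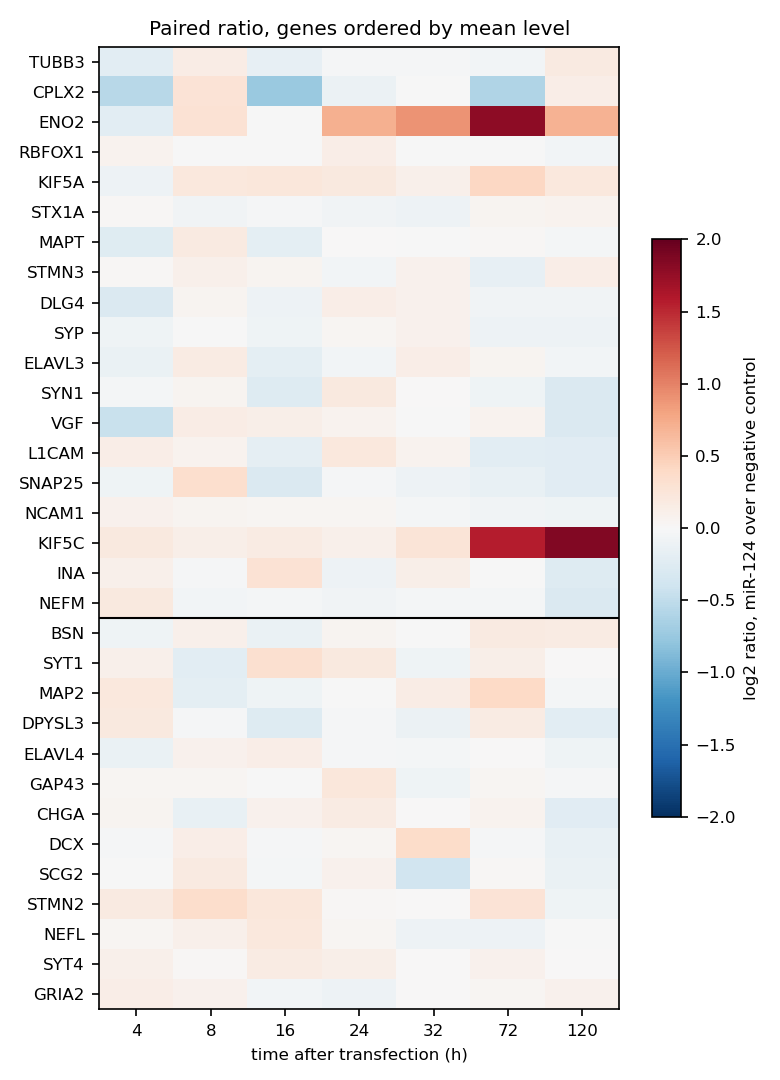
Log2 ratio of miR-124 over negative control (colour) for the 32 genes, ordered by mean level, at the 7 times, with a line between genes above and below the median of all probe sets. ENO2 is red from 24 h on and KIF5C at 72 and 120 h, while CPLX2 is blue at 4, 16 and 72 h.

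The arrays of a time were tested as pairs, with limma across all 19775 genes and Benjamini-Hochberg adjustment over all of them. Nothing in the labels says that the arrays came from separate cultures. The p-values of ratios rest on how much they varied between times, which mixes change with time and technical spread. In the window tests this spread is pooled over the windows, and limma moderates it with all genes. A late p-value thus rests largely on times up to 32 h. Where 72 or 120 h is left out, a single late pair remains and its spread comes from the other windows. Over all 7 pairs no neuronal gene was called at an adjusted p under 0.05, against 0.00506% of all genes. An unadjusted p under 0.05 was reached by 4 of the 32, against 20.5% of all genes. In the early window (4 and 8 h) none was called, against 0% of all genes, and 1 of 32 (STMN2) was under 0.05 unadjusted, against 2.42% of all genes. In the middle window (16, 24 and 32 h) none was called, against 5.26% of all genes, and 1 of 32 (ENO2) was under 0.05 unadjusted, against 15.7% of all genes. In the late window (72 and 120 h) limma called 2 of 32, or 6.25%, both higher with miR-124, against 20.6% of all genes called, 11.9% higher and 8.66% lower. By brightness that is 2 of 19 above the median, where 28.2% of all such genes were called, and 0 of 13 at or below it, where 5.64% were. The number of neuronal genes called late was thus below the share of all genes. The median late ratio was −0.03 over the neuronal genes and −0.02 over all genes. In whole cultures, fewer cells that express a gene and less RNA per cell cannot be told apart.

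KIF5C, a neuron-enriched heavy chain of the motor kinesin-1, rose the most. With miR-124 its level was 6.06, 6.09, 6.09, 6.18, 6.21, 7.60 and 7.95 from 4 to 120 h, and in the control it was 5.86, 5.98, 5.93, 6.08, 5.95, 6.04 and 6.10. The miR-124 arrays were above all 7 control arrays from 24 h on, narrowly at 24 and 32 h and by over 1 at 72 and 120 h. The late ratio was 1.71 ± 0.09, or 3.27-fold (n = 2 pairs, 95% interval 1.5 to 1.92, limma adjusted p = 2.91e-05). In the middle window it was 0.17 ± 0.08 (n = 3 pairs, limma adjusted p = 0.326), and late minus middle was 1.54 ± 0.12 (limma adjusted p = 0.00072), the one neuronal gene of 32 called for that difference, against 3.97% of all genes called and 2.77% called higher. KIF5C counts among the genes above the median only through the miR-124 arrays, since it was above the array's median on 3 of 7 with miR-124 and on 0 of 7 in the control.

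ENO2, the enolase of neurons and neuroendocrine cells, was the other gene called. Its level with miR-124 was 8.43, 8.40, 8.62, 9.15, 9.24, 10.1 and 9.56 from 4 to 120 h, and in the control it was 8.64, 8.10, 8.62, 8.43, 8.35, 8.31 and 8.87. From 24 h on each miR-124 array was above all control arrays, while the arrays up to 16 h were intermixed. The late ratio was 1.24 ± 0.27, or 2.36-fold (n = 2 pairs, 95% interval 0.62 to 1.86, limma adjusted p = 0.0124). The pair of 72 h decided this call, since without it the late ratio was 0.69 (limma adjusted p = 0.112). Fitted on the 4 late arrays alone, ENO2 also missed the threshold (limma adjusted p = 0.0684), whereas KIF5C kept its call in both settings. In the middle window ENO2 was at 0.54 ± 0.22 (n = 3 pairs, limma adjusted p = 0.277), and late minus middle was 0.70 ± 0.35 (limma adjusted p = 0.381).

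A measure of RNA quality also differed between the transfections from 24 h on. The 3′ minus 5′ difference of the ACTB control probe sets was 0.561, 0.418, 0.357 and 0.411 with miR-124 from 24 to 120 h, and the matching controls had 0.271, 0.278, 0.237 and 0.102. Its part in the results was not tested. In the 18S ribosomal RNA probe sets the 4 h miR-124 array stood at 11.1 and its control at 8.70. Without the 4 h pair the late calls were again KIF5C and ENO2, but leaving it out cannot move a late ratio, only the spread it is judged by.

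**Figure D3:**
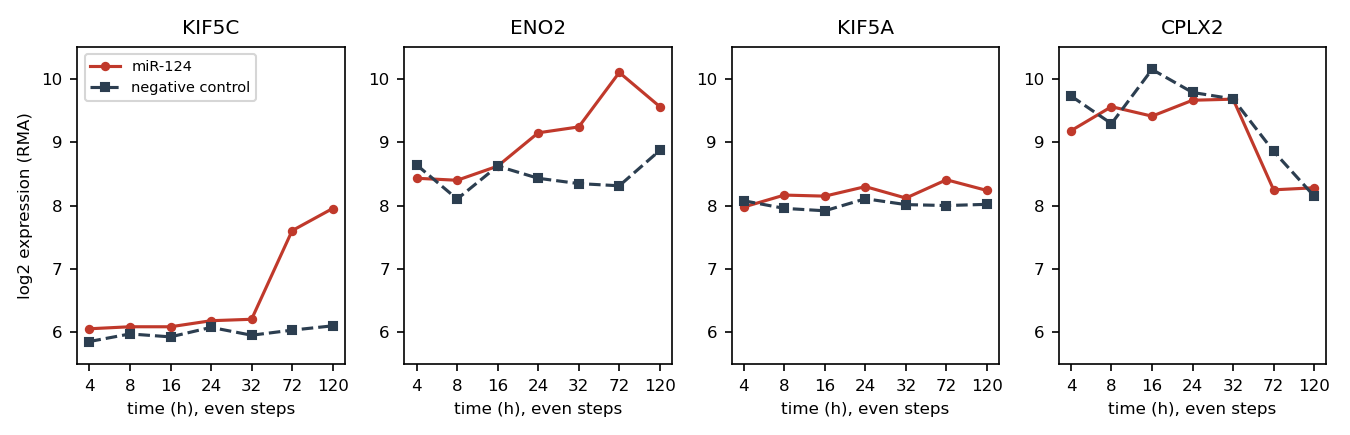
Log2 level at the 7 times (horizontal axis in even steps, not to scale) for KIF5C, ENO2, KIF5A and CPLX2 with miR-124 (red circles) and in the negative control (dark squares), 1 array per point. KIF5C separates at 72 and 120 h and ENO2 from 24 h, KIF5A differs little, and CPLX2 is lower late in both transfections.

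Among the other cytoskeletal and transport genes, none of 12 was called in any window. Of all genes, 0% were called early, 5.26% in the middle window and 20.6% late. KIF5A, a second neuronal kinesin-1 heavy chain, had a level of 7.98, 8.17, 8.15, 8.30, 8.12, 8.41 and 8.24 with miR-124 from 4 to 120 h and of 8.08, 7.96, 7.92, 8.11, 8.01, 8.00 and 8.02 in the control. It was the higher array with miR-124 in 6 of 7 pairs, by at most 0.41, and its late ratio of 0.31 ± 0.10 missed the threshold (n = 2 pairs, 95% interval 0.09 to 0.54, limma adjusted p = 0.058). It was called without the time block (limma adjusted p = 0.0458), with arrays centred on their medians (limma adjusted p = 0.0494) and without 120 h (limma adjusted p = 0.0427).

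TUBB3, a beta-tubulin used as an early neuron marker, was at 11.7 to 12.0 with miR-124 and at 11.8 to 12.1 in the control, with a late ratio of 0.07 ± 0.11. Both of its probe sets carry the suffix _x_at, which the array's maker gives to probe sets that can bind related transcripts, so TUBB3 and its sister tubulins may not be told apart. The suffix also applies to the probe sets used for NEFL, MAPT and VGF. The neurofilament genes NEFL, NEFM and INA, which build the axonal cytoskeleton, had late ratios of −0.05, −0.16 and −0.13. The growth cone gene GAP43 was at 0.01 and DCX, which binds microtubules in migrating neurons, at −0.09. DPYSL3, a growth cone protein, and STMN3, a stathmin, were at −0.03 and −0.01. STMN2, which destabilizes microtubules in growth cones, was at 4.47 to 4.78 with miR-124 and 4.31 to 4.55 in the control, and its late ratio was 0.09 ± 0.11.

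None of the 8 genes of the synaptic vesicle and its release was called, against 5.26% of all genes in the middle window and 20.6% late. The SNARE proteins SNAP25 and STX1A had late ratios of −0.18 and 0.06, the calcium sensors SYT1 and SYT4 of 0.06 and 0.04, the vesicle proteins SYP and SYN1 of −0.10 and −0.19, and the active zone scaffold BSN of 0.17. SYN1, whose promoter holds the complete RE1 shown above, was at 6.66 to 6.92 with miR-124 and at 6.72 to 6.98 in the control. GRIA2 and VGF, which also hold an RE1 match, had late ratios of 0.06 and −0.11.

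CPLX2, a complexin that clamps SNARE complexes, varied more than any other gene of the list in the control. With miR-124 its level was 9.18, 9.56, 9.41, 9.66, 9.68, 8.25 and 8.28 from 4 to 120 h, and in the control it was 9.73, 9.29, 10.15, 9.78, 9.68, 8.85 and 8.15. In both transfections its lowest levels were at 72 and 120 h. The ratio went from −0.74 at 16 h to 0.27 at 8 h with no single direction, and its late value was −0.24 ± 0.24 (limma adjusted p = 0.586, n = 2 pairs, 95% interval −0.79 to 0.31). In the control alone its slope per doubling of time was −0.27 ± 0.10 (limma adjusted p = 0.138, unadjusted 0.021, over 7 arrays). None of the 32 genes had a control slope called, against 5.27% of all genes, and 2 were under 0.05 unadjusted, against 22.8% of all genes. Apart from CPLX2 the slopes ran from −0.05 (STMN3) to 0.05 (STMN2).

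No gene of the remaining groups, which are small, was called, against 5.26% of all genes in the middle window and 20.6% late. The receptor subunit GRIA2 and the postsynaptic scaffold DLG4 had late ratios of 0.06 and −0.08. The RNA-binding proteins ELAVL3, ELAVL4 and RBFOX1 lay between −0.04 and −0.01. NCAM1, an adhesion molecule, was at −0.07. The granule proteins SCG2, CHGA and VGF lay between −0.11 and −0.06. L1CAM, which guides axons, was at 6.80, 6.69, 6.53, 6.76, 6.76, 6.76 and 6.54 with miR-124 from 4 to 120 h and at 6.67, 6.61, 6.72, 6.55, 6.69, 6.97 and 6.77 in the control, with intermixed values and a late ratio of −0.22 ± 0.10 (limma adjusted p = 0.182, n = 2 pairs).

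How large a change could have been missed is given by the intervals, with 2 limits. They hold for the 1 probe set used per gene, and they take the spread to be the same in every window. Some other probe sets lay outside the interval of their gene, such as those called late for MAP2 (0.83) and L1CAM (−0.79), described below. In the late window the 95% interval lay inside a 2-fold change either way for 30 of 32 genes, all but KIF5C and ENO2, and inside 1.5-fold for 29, with CPLX2 the third outside. In the middle window it lay inside 2-fold for 31, all but ENO2. The shared spread rests largely on times up to 32 h. If the technical spread was larger late, the late intervals are too narrow, and 2 late pairs are too few to tell. The late counts are thus not firm bounds. Ratios of probe sets near the bottom of an array's scale are known to understate a change.

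**Figure D4:**
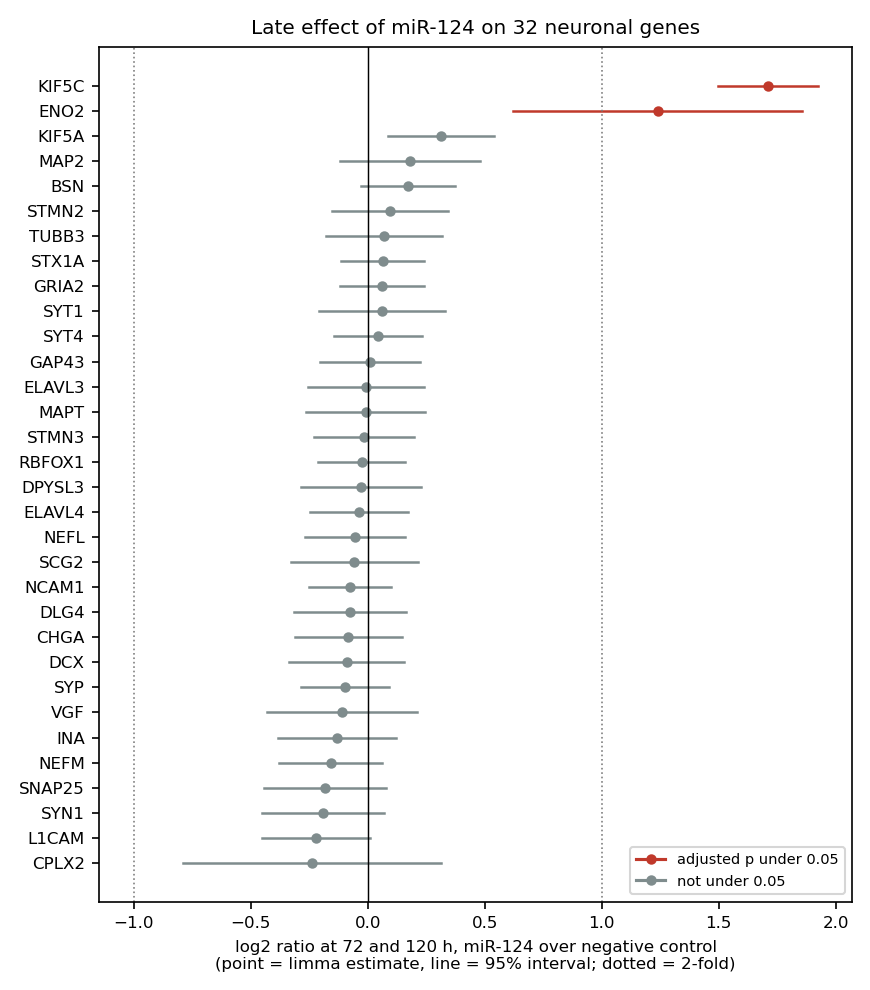
Late log2 ratio of miR-124 over negative control for the 32 genes (limma estimate over 2 pairs, with a 95% interval from the spread shared by all windows), with dotted lines at a 2-fold change. KIF5C (1.71) and ENO2 (1.24) are past the adjusted threshold, and the other 30 intervals lie between the dotted lines.

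The choice of probe set moved the late ratio most for 4 genes. The 32 genes have 75 probe sets, and 23 of the genes have more than 1. When every probe set with 1 gene symbol was tested, limma called 6 of the 75 in the late window, 5 higher and 1 lower, against 17.2% of all probe sets. The spread of the late ratio between probe sets of a gene was over 0.5 for KIF5C, MAPT, MAP2 and L1CAM and at most 0.37 for the other 19. The probe sets named next were chosen after their values were seen.

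For KIF5C a second probe set gave a late ratio of 1.62 ± 0.13 (limma adjusted p = 0.00018, n = 2 pairs), close to that of the first, while the third had ratios of 0.24 at 72 h and −0.12 at 120 h. MAP2, a dendritic microtubule protein, was not called by its brighter probe set, with 5.47 to 6.04 under miR-124 and 5.53 to 5.85 in the control. Its dimmer probe set was at 4.88 and 4.99 with miR-124 at 72 and 120 h, against 4.11 and 4.10 in the control, and both transfections were between 4.17 and 4.33 up to 32 h. That late ratio was 0.83 ± 0.09 (limma adjusted p = 0.000526, n = 2 pairs), or 1.77-fold. L1CAM fell by its dimmer probe set, with a late ratio of −0.79 ± 0.20 (limma adjusted p = 0.0273, n = 2 pairs), made of −0.33 at 72 h and −1.25 at 120 h, where the miR-124 array stood at 6.01 and the control array at 7.26, the highest of its 7. For MAPT, a microtubule protein of axons, 1 of 6 probe sets was called, at 0.38 ± 0.10 (limma adjusted p = 0.0364, n = 2 pairs), and the lowest was at −0.31. With the mean of all probe sets per gene, MAP2 and L1CAM joined the late calls, which made 4. In the control arrays alone, 2 of the 75 probe sets were called for a slope with time, against 4.06% of all probe sets, a dimmer one of CPLX2 at −0.14 ± 0.03 per doubling (limma adjusted p = 0.0449, over 7 arrays) and the second of TUBB3 at −0.09 ± 0.02 (limma adjusted p = 0.0388, over 7 arrays).

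**Figure D5:**
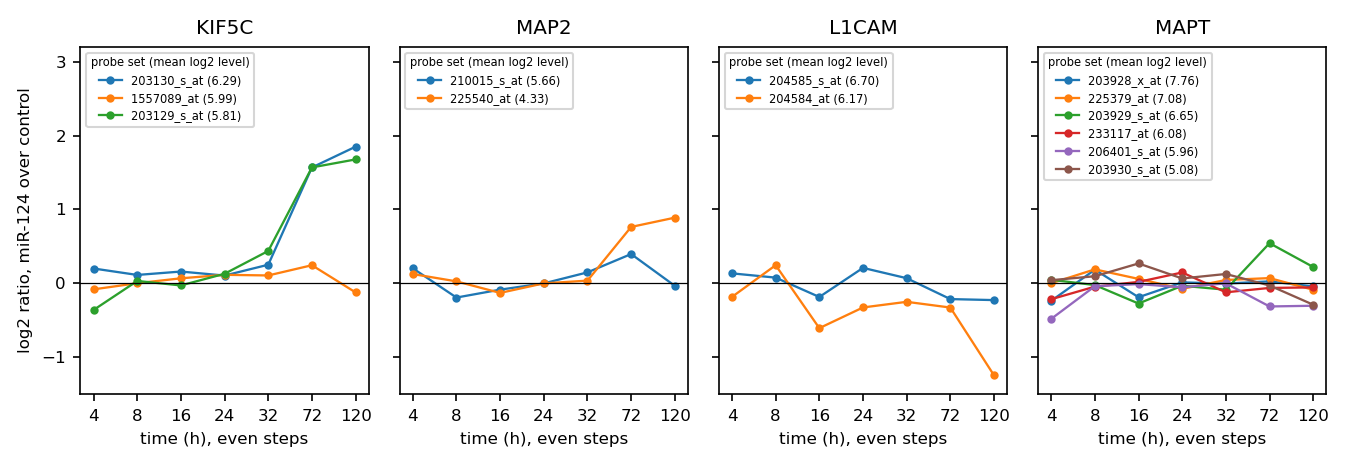
Log2 ratio of miR-124 over negative control at the 7 times for each probe set of KIF5C, MAP2, L1CAM and MAPT, with its mean log2 level in the key. Of the 3 KIF5C probe sets 2 are high late, the dimmer MAP2 probe set is high late (0.76 and 0.89), and the dimmer L1CAM probe set is lowest at 120 h (−1.25).

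Broadly expressed relatives of these genes gave a comparison within families. ENO1, the common enolase, had a late ratio of −0.14 ± 0.09 (limma adjusted p = 0.331, n = 2 pairs) beside 1.24 for ENO2. KIF5B, the common kinesin-1 heavy chain, was at −0.09 ± 0.10 (limma adjusted p = 0.63, n = 2 pairs) beside 1.71 for KIF5C. The difference between relatives was not tested. Of 13 such relatives none was higher and 4 were lower late, which were SYPL1, a relative of SYP, at −1.32 ± 0.18, the SNARE proteins SNAP23 at −0.66 ± 0.09 and STX4 at −0.40 ± 0.08, and the stathmin STMN1 at −0.52 ± 0.12. SYPL1 was also the 1 called in the middle window, at −1.21 ± 0.15. The 4 are 30.8% of the relatives, all 13 of which lie above the median, where 28.2% of all genes were called late. The median late ratio of the relatives was −0.09.

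Neuronal genes outside the list of 32 were looked at in a further list of 35, of which 29 were measured. Late calls were 4 higher and 1 lower, and middle calls 3 higher, with medians of 0.03 late and 0.05 in the middle window. The share called was 17.2% late, against 20.6% of all genes, and 10.3% in the middle window, against 5.26% of all genes. These shares are not matched for brightness. The list was chosen with earlier results of these data known, so they do not show an excess of neuronal genes. PTBP2, the PTB splicing protein of neurons, had a late ratio of 2.40 ± 0.18 after a middle one of 1.19 ± 0.15. The synaptic vesicle glycoprotein SV2A was at 0.42 ± 0.09 and 1.39 ± 0.11, and at 120 h its level with miR-124 reached 8.77, that in the control 7.41. MAP1B, a microtubule protein, was at 0.32 ± 0.06 and 0.57 ± 0.08. CHGB, a granule protein related to CHGA, was called late only, at 0.86 ± 0.13. TUBB2B, a tubulin of developing neurons, was lower late at −0.88 ± 0.22, with −1.43 at 72 h and −0.32 at 120 h. Its probe set also carries the suffix _x_at. Its level rose with time in both transfections, from 5.51 at 4 h to 7.78 at 120 h with miR-124 and from 5.67 to 8.11 in the control. Of 8 neuronal transcription factors measured, 1 was called, ONECUT2, which is also a liver factor, at 0.41 ± 0.07 in the middle window and 0.63 ± 0.09 late. That is 12.5% in each window, against 5.26% of all genes in the middle window and 20.6% late.

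The repressors around these genes were measured on the same arrays. REST itself was at −0.17 ± 0.09 in the middle window (limma adjusted p = 0.41, n = 3 pairs) and at −0.24 ± 0.10 late (limma adjusted p = 0.149, n = 2 pairs). Calls among 14 measured genes for REST and its cofactors were 3 lower in the middle window, 4 lower late and 1 higher late, with a median late ratio of −0.12. The share called was 35.7% late, where 28.2% of all genes above the median were called and all 14 lie above it. In the middle window it was 21.4%, against 5.26% of all genes, bright and dim together, so that comparison is not matched for brightness. The corepressor RCOR1 was at −0.58 ± 0.17 late, the phosphatases CTDSP1, CTDSP2 and CTDSPL at −0.82 ± 0.12, −0.67 ± 0.11 and −0.99 ± 0.13, and RCOR3 at 0.44 ± 0.12. The splicing repressors PTBP1 and PTBP3 were lower late, at −1.29 ± 0.29 and −0.99 ± 0.21.

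Markers of other cells were few and mixed late. Calls were 1 of 5 for astrocytes (SLC1A2 at 1.08), 1 of 4 for oligodendrocytes (MBP at 0.47), 1 of 4 for blood cells (CD3D at 1.44) and 1 of 6 for fibroblasts and endothelium (PECAM1 at 0.46), all higher, and 1 of 8 hepatocyte markers was lower (FGB at −0.46). These shares stand against 20.6% of all genes called late. In the middle window none of these was called. Their part in the results was not tested. The summed log2 level of the 5 astrocyte markers was 29.5 to 31.6 with miR-124 and 29.4 to 31.0 in the control. For the 4 oligodendrocyte markers the mean level was 6.13 to 6.49 with miR-124 and 6.11 to 6.26 in the control. The sum for the 4 blood markers was 25.9 to 28.6 with miR-124 and 25.5 to 26.6 in the control, and that for the 6 fibroblast and endothelial markers 40.4 to 41.6 with miR-124 and 40.3 to 41.3 in the control. For the 32 neuronal genes it was 208.3 to 213.3 with miR-124 and 208.8 to 210.3 in the control. These ranges overlap in each list, but each spans all 7 times, so an overlap does not exclude a late difference.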

How the data were processed

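Each of the 14 arrays has 1 deposited log2 value per probe set, and the submitters' processing notes name RMA without a version. That the scale is log2 was read from the range of the deposited values, 2.93 to 14.4. RMA aligns the arrays, so a change in total mRNA would not show. Arrays have no read depth, and their number limits the precision. Of 54675 probe sets, 41091 had 1 gene symbol in the platform annotation (1801 had several, 11721 none, and 62 were controls), and 41037 of them matched the reference gene table. All 32 genes are described. Levels on every array are given for genes called in any test and for the 5 largest window effects among genes above the median. In other lists the called genes are named, at most 5 each, with REST and the PTBP genes always. Listed genes without a probe set of their own symbol were not analysed here.

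All tests used limma 3.58.1 under R 4.3.3 (lmFit, eBayes, two-sided, Benjamini-Hochberg, threshold 0.05). The adjustment was over 19775 genes, or over all 41091 probe sets where single probe sets were tested. In the alternative above the median it was over 13128 genes. The fits of the middle and late windows were checked on simulated data, with independent noise and a constant change within a window. That check does not cover a change that differs between times of a window, or a larger spread late. The overall fit held time as a block and transfection. A second fit had 1 term for each window and shares 1 spread per gene. The control slope used 7 arrays. Pairing comes from the common times in the labels, and same-time arrays deviated together from their group means, with r of 0.2 to 0.43 and over 0.1 for all 7 pairs. The genes, lists and windows were chosen with earlier results of these data known. Figures were drawn with matplotlib 3.10.9.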

Additional observations from a re-analysis of the deposited data

Results flagged for a closer look

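KIF5C differed between windows by the test of the difference itself, with a late minus middle ratio of 1.54. A single time stood far from the other 6 in 5 of 96 sets of 7 values (levels in each transfection and ratios of the 32 genes), and about 1 in 20 such sets does so by chance. These were the control level at 4 h of TUBB3 (12.08, the next 11.86) and of DCX (4.99, the next 5.11), the control level of SCG2 at 32 h (5.19, the next 4.95), the ratio of SNAP25 at 8 h (0.34, the next −0.02) and the ratio of GAP43 at 24 h (0.23, the next 0.04). The 7 values are from different times, so a value that stands apart may be a change with time.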

How the results depend on the processing

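The late count of 2 genes was 4 with the mean of all probe sets per gene, where MAP2 and L1CAM joined, and 1 when only the 4 late arrays entered the fit (a setting chosen after seeing the data). Leaving out 1 time in turn gave 1 to 3 late calls, 1 without 72 h and 3 without 120 h, where KIF5A joined. Over all 7 pairs it gave 0 to 1, with KIF5A called without 4 h, and for late minus middle 1 to 2, with ENO2 called without 120 h. With no replicate block, that is without time in the fit, the late count was 3, with KIF5A added. It was 3 also with arrays centred on their medians. With each gene at its brightest probe set or the mean of its probe sets, the counts for the early and middle windows and for the control slope were 0 in every alternative run. Counting all 75 probe sets, 2 had a control slope called, 1 of CPLX2 and 1 of TUBB3. KIF5C was called late in all of them, at 1.13 to 1.85 on the log2 scale. Over all genes the late count of 4075 was 2216 with a minimum of 1.5-fold and 906 from the late arrays alone. The middle count of 1041 was 476 with that minimum, 2161 from the middle arrays alone and 19 to 2162 when a time was left out (19 without 24 h, 24 without 32 h, and 2162 without 72 or 120 h). The cause of these changes was not tested, except that the mean over probe sets brings in the dimmer probe sets described above. Without 72 or 120 h a single late pair remained, and the spread behind its calls came from the other windows. With 2 or 3 pairs per window and no repeat of a time, differences smaller than the intervals given could not be seen.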
